A study of Schizosaccharomyces pombe with 32 samples.

Results

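A chain of 10 enzymes carries glucose to pyruvate in glycolysis, and the fission yeast Schizosaccharomyces pombe has a main gene for each step. The glycolytic genes described here are these 10: hxk2, pgi1, pfk1, fba1, tpi1, tdh1, pgk1, gpm1, eno101 and pyk1, taken in pathway order. They were chosen as the genes that the array annotation gives these names, out of 4811 genes tested. Each had 1 probe, and each was measured on all 32 arrays. The arrays were spotted 2-colour arrays, and each value is a log2 ratio of the RNA of nitrogen-starved cells, in Cy5, over the RNA of the same strain in growth, in Cy3. A value of 1 is a 2-fold higher level in starved cells, and a value below 0 is a lower level in starved cells.

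In the P-factor condition, cells of the strain labelled CRL672 were starved in the presence of synthetic P-factor, the mating pheromone of P cells, at 0.5 ug per ml. In the condition without pheromone, cells of the strain labelled L972 were starved alone. Both were sampled every hour from 1 to 8 h, with 2 arrays per hour, so each condition had 16 arrays and the study 16 groups. Growing cells were in the rich medium YES and starved cells in the minimal medium EMM2 without nitrogen, so a ratio against growth holds the change of medium as well as the loss of nitrogen, and these cannot be told apart. Strain and pheromone also changed together and cannot be told apart. The genotype of CRL672 is not known from the labels. The labels' array numbers fall into 4 series of 8 arrays, 2 for each condition, here called replicate 1 and replicate 2. In bulk RNA, fewer cells with a transcript and less transcript per cell cannot be told apart.

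The upper steps of glycolysis use ATP to turn glucose into triose phosphates. Hexokinase (hxk2) phosphorylates glucose, phosphoglucose isomerase (pgi1) makes fructose 6-phosphate, phosphofructokinase (pfk1) makes fructose 1,6-bisphosphate, aldolase (fba1) splits it, and triose phosphate isomerase (tpi1) interconverts the products. The lower steps gain ATP and NADH through glyceraldehyde 3-phosphate dehydrogenase (tdh1), phosphoglycerate kinase (pgk1), phosphoglycerate mutase (gpm1), enolase (eno101) and pyruvate kinase (pyk1). On glucose, fission yeast mostly ferments pyruvate to ethanol, and several enzymes of the pathway also work backwards in gluconeogenesis.

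The first question was whether the glycolytic genes differed between starved and growing cells. They did not move one way. Averaged over the 8 hours, 3 genes were higher and 5 lower in starved cells with P-factor, and 3 were higher and 3 lower without it (limma, Benjamini-Hochberg adjusted p under 0.05 over all genes tested). Of all genes tested, 33.9% were higher and 32.8% lower with P-factor, and 33.7% were higher and 35.3% lower without it. The 3 of 10 called higher in each condition and the 3 of 10 called lower without P-factor were close to these shares. The changes were mostly small. Only pgk1, and only with P-factor, passed a 2-fold change, against 28.6% of all genes with P-factor and 29.1% without it.

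The 3 genes above growth were the same in both conditions: pgi1, pfk1 and tdh1. The phosphoglucose isomerase gene pgi1 was the highest of the 10 and the steadiest. Its values lay between 0.91 and 1.23 in replicate 1 with P-factor and between 0.68 and 1.13 in replicate 2, against 0.22 to 0.70 in replicate 1 without P-factor and 1.07 to 1.39 in replicate 2. All 32 arrays were above 0, and without P-factor the 2 replicates did not overlap. The averages were 0.96 ± 0.13 (SE of the model) with P-factor and 0.87 ± 0.13 without it (adjusted p = 6.56e-07 and 2.86e-06), or 1.95-fold and 1.83-fold. No variation over the hours was found for pgi1 in either condition (moderated F test over the 8 hours, adjusted p = 0.987 with P-factor and 0.829 without it).

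The phosphofructokinase gene pfk1 averaged 0.43 ± 0.15 with P-factor and 0.73 ± 0.15 without it (adjusted p = 0.0117 and 0.000122). The 16 values with P-factor ran from -0.25 to 0.97 and the 16 without it from 0.07 to 1.42. The dehydrogenase gene tdh1 averaged 0.48 ± 0.16 with P-factor and 0.58 ± 0.16 without it (adjusted p = 0.012 and 0.00312). The tdh1 values overlapped 0 in the first 2 hours and then stayed above it on all later arrays, between 0.10 and 1.29.

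Of the lower ones, tpi1, pgk1 and gpm1 were called in both conditions. The triose phosphate isomerase gene tpi1 averaged -0.70 ± 0.14 with P-factor and -0.54 ± 0.14 without it (adjusted p = 9.5e-05 and 0.00128), and all 32 of its values were below 0. The phosphoglycerate kinase gene pgk1 averaged -1.03 ± 0.21 with P-factor, a 2.04-fold lower level, and -0.55 ± 0.21 without it (adjusted p = 0.000219 and 0.0269). The means over 8 hours were -0.64 and -1.42 in replicates 1 and 2 with P-factor, against -0.11 and -1.0 without it, so replicate 2 was lower in each condition. The pgk1 call without P-factor rests on replicate 2, since the average was -0.11 without that replicate and was not called. The mutase gene gpm1 averaged -0.91 ± 0.20 with P-factor and -0.74 ± 0.20 without it (adjusted p = 0.000386 and 0.00236), and all 32 gpm1 values were below 0.

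The hexokinase gene hxk2 and the pyruvate kinase gene pyk1 were called lower only with P-factor, at -0.42 ± 0.11 and -0.40 ± 0.17 (adjusted p = 0.00214 and 0.0424). Without P-factor hxk2 averaged -0.21 ± 0.11 and pyk1 0.26 ± 0.17 (adjusted p = 0.0963 and 0.187). The differences between the conditions themselves were -0.21 ± 0.16 for hxk2 and -0.66 ± 0.24 for pyk1 and did not pass the test (adjusted p = 0.578 and 0.159). Aldolase, fba1, averaged 0.12 ± 0.19 with P-factor and 0.24 ± 0.19 without it (adjusted p = 0.588 and 0.257). Enolase, eno101, averaged -0.42 ± 0.24 with P-factor and -0.27 ± 0.24 without it (adjusted p = 0.121 and 0.332). Neither was called.

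Some of these averages hang on single series of arrays more than others. With P-factor, leaving out replicate 1 or replicate 2 gave 0.35 or 0.51 for pfk1 and 0.45 or 0.51 for tdh1. For pgk1 it gave -1.42 or -0.64, for gpm1 -1.22 or -0.59, for hxk2 -0.62 or -0.22 and for pyk1 -0.67 or -0.14. Fewer arrays can also cost a call where the estimate stays alike. Without replicate 2 with P-factor, 1 gene was called higher and 1 lower, pgi1 and tpi1, and without replicate 1 with P-factor 1 was higher and 4 lower. Without replicate 1 of the condition lacking P-factor, 5 were higher there and 3 lower. The labels name no array with the dyes swapped, and any dye bias of a probe therefore remains in its ratio against growth. It cancels in differences between hours and between conditions only if it was the same on the arrays compared. Each condition was measured against growing cells of its own strain. Any difference between the growing strains therefore stays in the differences between conditions on average and at single hours.

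**Figure D1:**
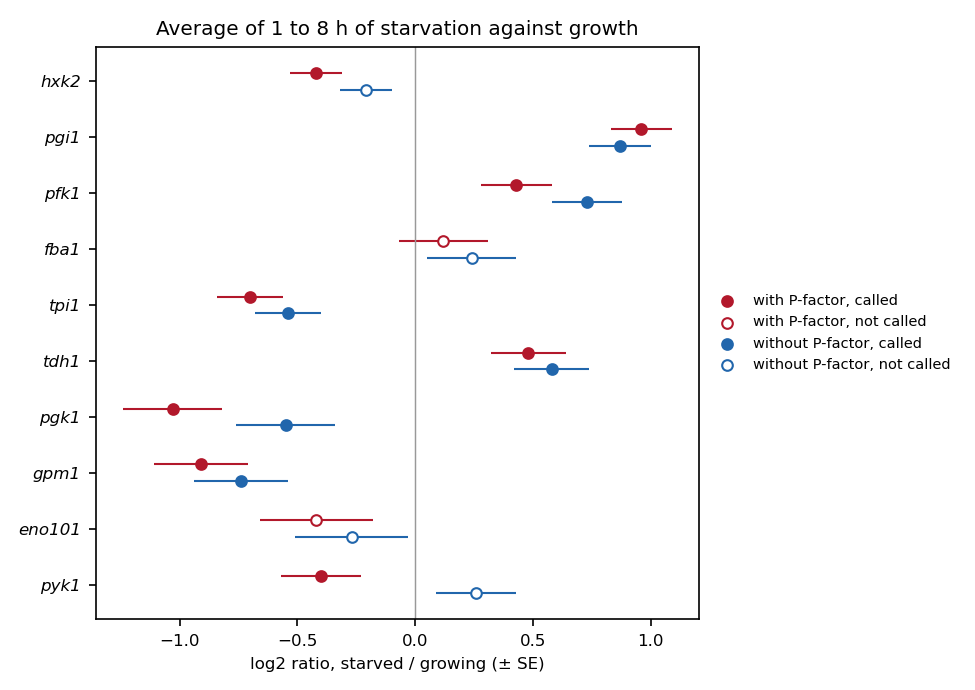
Average log2 ratio of starved over growing cells over 1 to 8 h for each glycolytic gene in pathway order from top to bottom, with P-factor (red) and without it (blue). Points are model estimates, bars are standard errors, and filled points passed an adjusted p of 0.05. The genes fall on both sides of 0, from pgk1 at -1.03 to pgi1 at 0.96 with P-factor.

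Some adjoining steps of the pathway averaged on opposite sides of growth, and others on the same side, such as pgk1, gpm1 and eno101. On all 32 arrays the ratio of tdh1 was above that of pgk1, the next enzyme, by 0.26 to 2.52 (median 1.33). The ratio of tdh1 was also above that of tpi1, the enzyme before it, on 32 of 32 arrays, by a median of 1.18. Likewise pgi1 was above hxk2 on 32 of 32 arrays, by a median of 1.27. Between the last steps, eno101 was above gpm1 on 28 of 32 arrays, by a median of 0.46, though both averaged below growth. These pairs were picked after their values were seen, and a dye bias of either probe would enter each gap the same way on every array.

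The second question was how the ratios moved through 8 h of starvation. The means of tpi1, pgk1, gpm1 and eno101 were below growth at 1 h, lower still at 2 h, and higher at 3 h than at 2 h in both conditions. The hxk2, tdh1, pfk1 and pyk1 means had no such dip and were higher at 2 h than at 1 h and higher again at 3 h. At 2 h, 5 genes were called below growth in each condition, and they were the same 5: hxk2, tpi1, pgk1, gpm1 and eno101. The fba1 and pyk1 means at 2 h were also below 0 and were not called. They were -0.16 and -0.23 with P-factor, against -0.14 and -0.07 without it. Among all genes, 31.6% were called below growth at 2 h with P-factor and 31.1% without it.

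**Figure D2:**
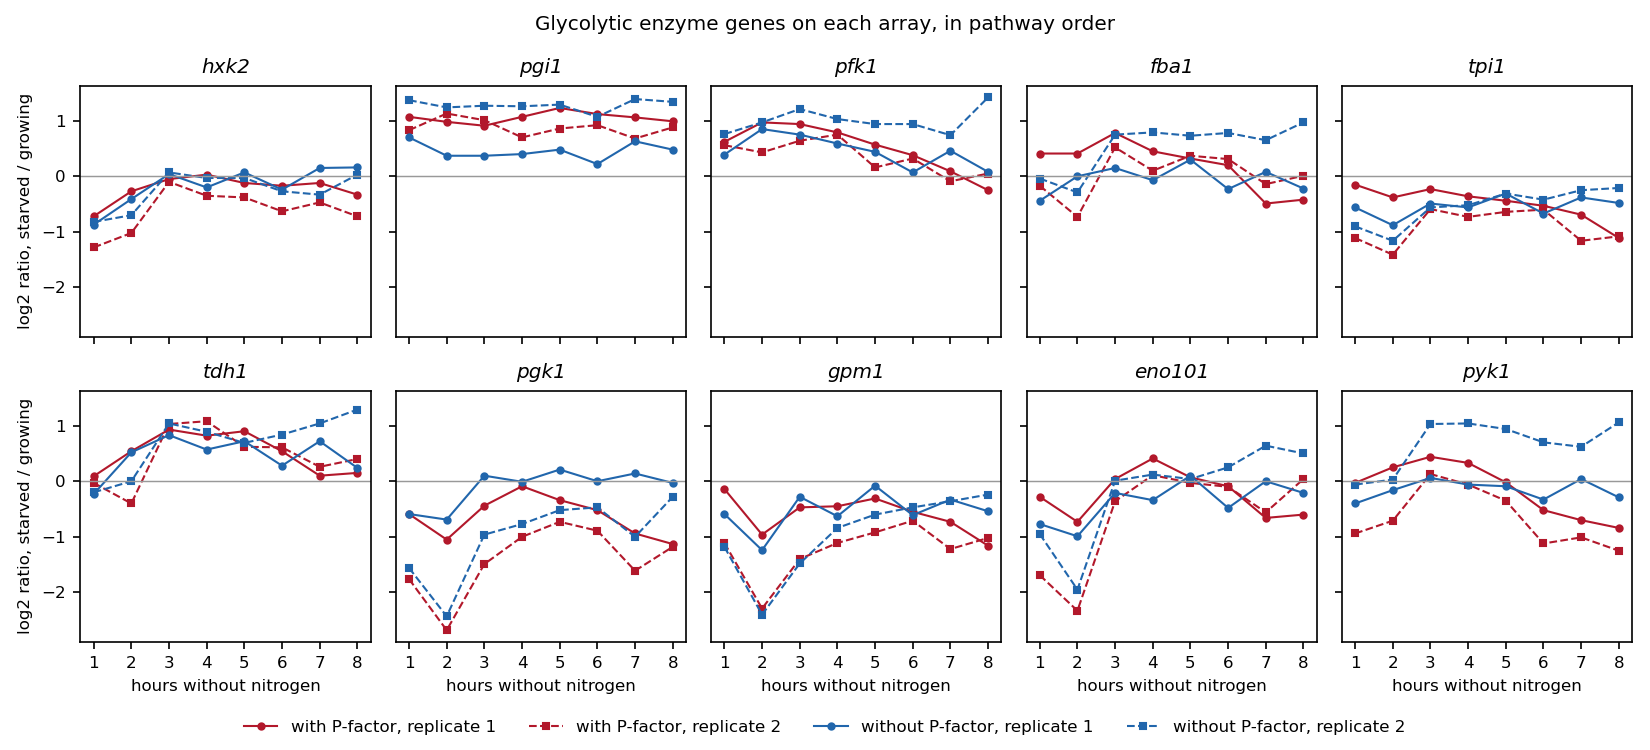
Log2 ratio of starved over growing cells on each of the 32 arrays against hours without nitrogen, a panel for each glycolytic gene in pathway order. Red lines are the series with P-factor and blue lines those without it, with replicate 1 solid and replicate 2 dashed. In replicate 2 of both conditions pgk1, gpm1 and eno101 have their lowest points at 2 h, between -1.95 and -2.68, while pgi1 stays flat.

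The lowest 2 h means were those of the consecutive lower steps pgk1, gpm1 and eno101. For pgk1 the 2 arrays at 2 h read -1.05 and -2.68 with P-factor, against -0.69 and -2.43 without it. For gpm1 they read -0.96 and -2.29 with P-factor, against -1.24 and -2.40 without it. For eno101 they read -0.73 and -2.33 with P-factor, against -0.99 and -1.95 without it. In each of these 6 pairs the lower value was that of replicate 2, and all 12 were below 0. The 2 h means were -1.86, -1.62 and -1.53 with P-factor and -1.56, -1.82 and -1.47 without it for pgk1, gpm1 and eno101 in that order, with standard deviations between the 2 arrays of 0.68 to 1.23. The replicate 2 series of both conditions carry adjoining array numbers in the labels. Whether they share a technical source was not tested.

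Enolase showed the fullest return. With P-factor, replicate 1 read -0.28, -0.73, 0.04, 0.41, 0.07, -0.09, -0.66 and -0.60 from 1 to 8 h, and replicate 2 read -1.69, -2.33, -0.36, 0.11, -0.03, -0.10, -0.56 and 0.04. Without P-factor, replicate 1 read -0.77, -0.99, -0.21, -0.34, 0.10, -0.48, 0.00 and -0.21, and replicate 2 read -0.95, -1.95, 0.01, 0.12, 0.04, 0.25, 0.64 and 0.50. The 8 values of 1 and 2 h were all at -0.28 or lower, and at 4 and 5 h all 8 lay between -0.34 and 0.41. The step from the first 2 hours to 3 to 5 h was 1.30 ± 0.26 with P-factor and 1.12 ± 0.26 without it (adjusted p = 0.000944 and 0.00367), or 2.46-fold and 2.17-fold.

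This contrast, 3 to 5 h minus 1 and 2 h, was chosen after the hourly values were seen. With P-factor it called 4 of the glycolytic genes higher: hxk2, tdh1, pgk1 and eno101, at 0.66, 0.84, 0.84 and 1.30. Of all genes, 17.1% were called higher in it. Without P-factor it called 7 higher, these 4 at 0.68, 0.77, 0.99 and 1.12 together with fba1, gpm1 and pyk1 at 0.63, 0.70 and 0.63, against 14.7% of all genes. None was called lower in either condition by limma, and 0 were at an unadjusted level of 0.05. The medians of the 10 were 0.44 with P-factor and 0.66 without it, against 0.07 and 0.05 for all genes. The 4 genes called with P-factor were no longer called without replicate 2 of that condition, and none of the 7 was called without replicate 2 of the other. No difference between the conditions in this step was called for any of the 10, and 0 passed an unadjusted level of 0.05 (largest difference -0.36 ± 0.32, gpm1, adjusted p = 0.788). Of all calls, 62.9% were higher with P-factor and 64.4% without it. With the values as deposited these shares were 46.9% and 49.5%.

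Hexokinase hxk2 took part in this step although it belongs to the other end of the pathway. Its values at 1 h were -0.72 and -1.28 with P-factor, against -0.87 and -0.82 without it, and at 3 h -0.05 and -0.10 with P-factor, against 0.04 and 0.07 without it. The replicates thus lay close together at 3 h, and the 1 h and 3 h values did not overlap.

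The contrast of late over early hours, 6 to 8 h minus 1 to 3 h, called different genes in the 2 conditions, except for eno101. With P-factor eno101 was the only gene called higher, at 0.56 ± 0.24 (adjusted p = 0.0481; 33.7% of all genes were higher), and pfk1 and pyk1 were called lower, at -0.61 ± 0.14 and -0.76 ± 0.17 (adjusted p = 0.00121 and 0.000687; 19.8% of all genes were lower). The eno101 call was lost under 7 of 11 alternatives, and its estimate was -0.12, and not called, without replicate 2. Without replicate 1, neither pfk1 nor pyk1 was called lower. Without P-factor 6 genes were higher late, against 24% of all genes, and none was lower, adjusted or not, against 18.3%. The 6 were eno101 at 0.93 ± 0.24, gpm1 at 0.77 ± 0.20, pgk1 at 0.75 ± 0.21, tdh1 at 0.41 ± 0.16, hxk2 at 0.36 ± 0.11 and tpi1 at 0.36 ± 0.14. The adjusted p values ran from 0.00304 for eno101 to 0.0454 for tdh1. None of the 6 was called without replicate 2 of that condition.

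Variation over the hours as a whole was found for 5 genes in each condition. With P-factor they were hxk2, pfk1, tdh1, eno101 and pyk1 (adjusted p = 0.00455 for pyk1 to 0.0231 for pfk1), against 42.1% of all genes. Without P-factor they were hxk2, tdh1, pgk1, gpm1 and eno101 (adjusted p = 0.00446 for hxk2 to 0.0375 for pgk1), against 25.9% of all genes. The genes hxk2, tdh1 and eno101 were called in both.

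**Figure D3:**
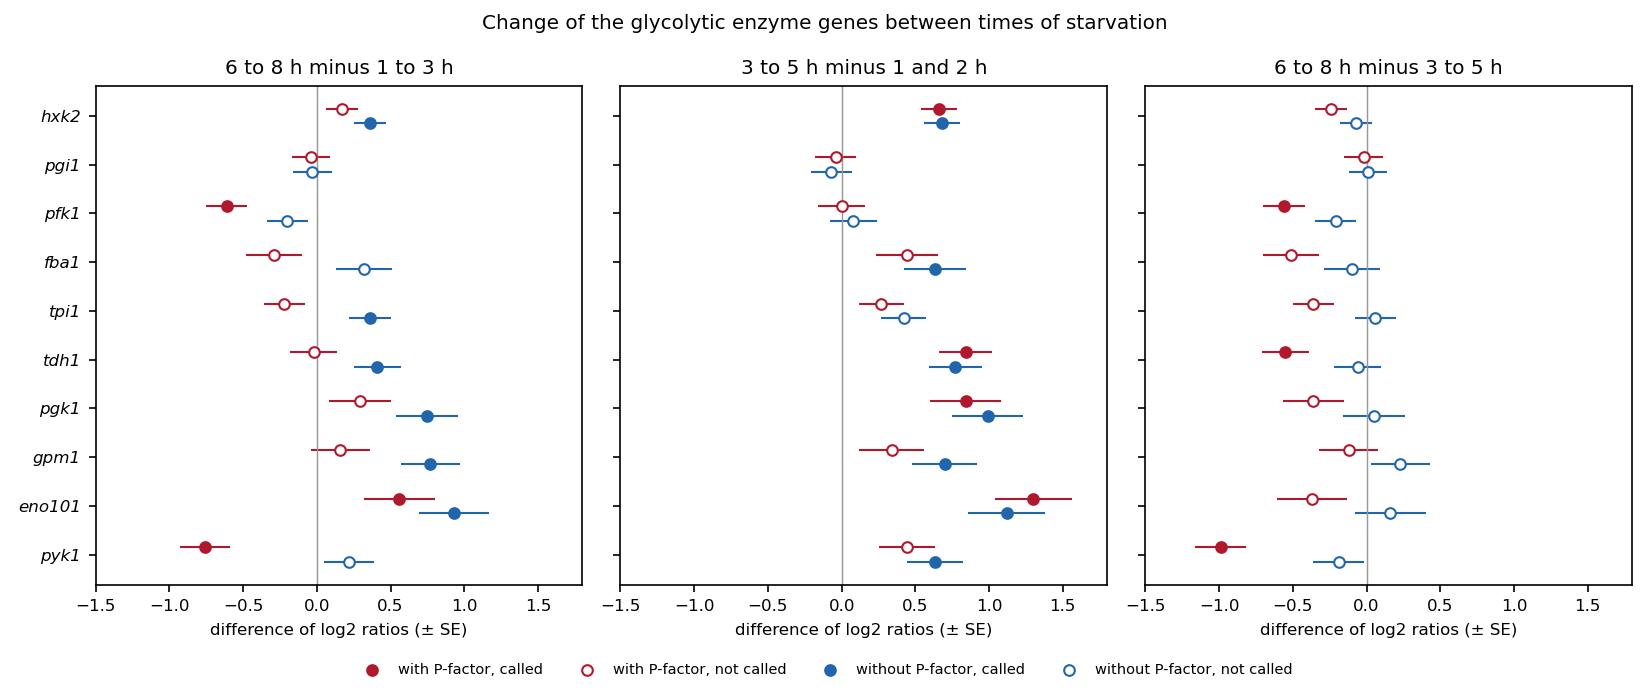
Differences of log2 ratios between times of starvation for each glycolytic gene, with P-factor (red) and without it (blue): 6 to 8 h minus 1 to 3 h, 3 to 5 h minus 1 and 2 h, and 6 to 8 h minus 3 to 5 h. Bars are standard errors and filled points passed an adjusted p of 0.05. In the last panel all 10 estimates with P-factor are below 0, with pyk1 at -0.99, while those without it lie between -0.21 and 0.23.

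The third question was whether the strain with P-factor differed from the strain without it. Over the 8-hour average, none of the 10 differed in either direction, and 3.33% of all genes did. At an unadjusted level of 0.05, limma called 1 of them, pyk1. The point estimates were below 0 for 9 of the 10, with a median of -0.16, and pgi1 was the exception at 0.10 ± 0.18. Of all genes, 50.7% were below 0. This count of 9 fell to 6 without replicate 2 with P-factor and to 7 without replicate 2 of the other condition. Without replicate 1 of the condition lacking P-factor, pfk1 and pyk1 were called lower with P-factor. Without its replicate 2, pgi1 was called higher and pgk1 lower.

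The differences between the conditions that were called, those of pyk1 and tpi1 given below, involved the later hours. The steps that follow here are within each condition. From 3 to 5 h to 6 to 8 h, all 10 glycolytic genes had estimates below 0 with P-factor, with a median of -0.37 against 0.05 for all genes, and 44% of all genes were below 0. Scaling the arrays to a common spread left 9 of 10 below 0. Those called lower were pyk1 at -0.99 ± 0.17, pfk1 at -0.56 ± 0.14 and tdh1 at -0.55 ± 0.16 (adjusted p = 0.000184, 0.00694 and 0.0146), against 8.06% of all genes. Without P-factor 5 of 10 were below 0, with a median of -0.02, and limma called none in either direction, adjusted or not, against 6.86% of all genes called higher and 5.34% called lower. This contrast was also chosen after the hourly values were seen. Only pyk1 was called in it when either replicate with P-factor was left out. Of all calls with P-factor 66.3% were higher, and 45.2% with the values as deposited. Tested between the conditions, this step differed by -0.35 ± 0.20 for pfk1 and -0.50 ± 0.23 for tdh1. Neither difference was called (adjusted p = 0.323 and 0.201).

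Pyruvate kinase catalyses the last, irreversible step, and its gene pyk1 carried the clearest difference. With P-factor, replicate 1 read -0.03, 0.25, 0.44, 0.33, -0.02, -0.52, -0.70 and -0.84 from 1 to 8 h, and replicate 2 read -0.94, -0.71, 0.13, -0.06, -0.35, -1.12, -1.01 and -1.25. Without P-factor, replicate 1 read -0.40, -0.16, 0.06, -0.06, -0.09, -0.33, 0.04 and -0.29, and replicate 2 read -0.06, 0.03, 1.03, 1.04, 0.94, 0.70, 0.62 and 1.06. The values of 6 to 8 h lay between -1.25 and -0.52 with P-factor and between -0.33 and 1.06 without it, so that the conditions did not overlap there. Before that they did.

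The late minus early change of pyk1 was 0.98 ± 0.24 lower on the log2 scale with P-factor than without it (adjusted p = 0.00458), and that of tpi1 was 0.57 ± 0.19 lower (adjusted p = 0.0305), against 10.2% of all genes called lower. The other 8 had estimates between -0.61 and -0.01 and were not called. The median of the 10 was -0.44 against 0.05 for all genes, of which 45.4% were below 0. All 10 estimates were below 0 as fitted, and 9 of 10 with the arrays scaled to a common spread. Neither pyk1 nor tpi1 was called without replicate 1 with P-factor, without replicate 2 of the other condition, or without the block for array series, and tpi1 was also lost without replicate 1 of the other condition. Between 3 to 5 h and 6 to 8 h the difference for pyk1 was -0.80 ± 0.24 (adjusted p = 0.0402; 2.04% of all genes were lower), and it lost its call whichever of the 4 array series was left out. Of all calls in the late minus early difference, 60.6% were higher, and 44.2% with the values as deposited.

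Hour by hour, the pyk1 difference of P-factor minus none was -0.26, -0.16, -0.26, -0.36, -0.61, -1.0, -1.19 and -1.43 from 1 to 8 h, each with a standard error of 0.37. It passed the test at 8 h (adjusted p = 0.0142; 2.54% of all genes were lower at 8 h) and narrowly missed it at 7 h (adjusted p = 0.0503). No other glycolytic gene was called at any hour. Against the growing cells, pyk1 with P-factor was at -0.82, -0.86 and -1.05 at 6, 7 and 8 h (adjusted p = 0.0107, 0.00819 and 0.00165), and without it at 0.19, 0.33 and 0.38. The replicates without P-factor lay far apart here, with means over 8 hours of -0.15 and 0.67, and each late pyk1 value of replicate 1 was below that of replicate 2. Even so, the late values with P-factor were below both.

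Phosphofructokinase catalyses the other main regulated step, and pfk1 had the course most like that of pyk1 among the glycolytic genes. Over the 16 group means their Pearson correlation was 0.826, where the points share arrays and growing-cell RNA. With P-factor pfk1 read 0.62, 0.97, 0.94, 0.79, 0.57, 0.38, 0.09 and -0.25 from 1 to 8 h in replicate 1 and 0.56, 0.43, 0.64, 0.75, 0.16, 0.32, -0.09 and 0.05 in replicate 2. Without it replicate 2 ended at 1.42 and replicate 1 at 0.08. The late minus early difference between the conditions was -0.41 ± 0.20 for pfk1 and was not called (adjusted p = 0.153).

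The other genes paired by course as follows. The consecutive lower genes pgk1 and eno101 correlated at 0.883 and pgk1 and gpm1 at 0.850. Aldolase fba1 and tpi1, which act one after the other, correlated at 0.891, and hxk2 and tdh1 at 0.883. The gene pgi1 stood apart, with 0.009 as its highest correlation with any of the others. The mean of the 10 genes itself was -0.32, -0.51, 0.11, 0.12, 0.04, -0.10, -0.42 and -0.43 from 1 to 8 h with P-factor, against -0.35, -0.47, 0.18, 0.13, 0.25, 0.05, 0.23 and 0.25 without it. At 7 and 8 h the means of the conditions stood on opposite sides of 0. The replicates of this mean at 8 h were -0.47 and -0.39 with P-factor, against -0.08 and 0.59 without it, so at 8 h only replicate 2 without P-factor was above 0. At 1 and 2 h the means of the conditions were close while the replicates with P-factor were apart, at 0.03 and -0.02 in replicate 1 and -0.67 and -1.0 in replicate 2.

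Among all other genes, those most like this mean over the 16 groups included direct neighbours of the pathway. First came gpd3 at 0.900, the second glyceraldehyde 3-phosphate dehydrogenase gene, then pdc101 at 0.884, a pyruvate decarboxylase gene, dis1 at 0.882, a microtubule-associated protein gene, adh1 at 0.868, the main alcohol dehydrogenase gene, and wdr8 at 0.864. Pyruvate decarboxylase and alcohol dehydrogenase turn pyruvate into ethanol. The genes gpd3 and tdh1 are close copies, their values correlated at 0.953 over 32 arrays and their median gap was 0.10, so that either probe may have measured both transcripts. That was not tested. The gene least like the mean was fbp1 at -0.883, which encodes fructose 1,6-bisphosphatase, the gluconeogenic enzyme that opposes phosphofructokinase and is known to be repressed by glucose. Next were ups2 at -0.848, ned1 at -0.825, SPCC70.08C at -0.820 and ppr5 at -0.816.

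The decarboxylase gene pdc101 was also lowest in the first 2 hours in replicate 2 of both conditions. With P-factor its values at 1 and 2 h were -0.91 and -0.99 in replicate 1 and -2.86 and -2.52 in replicate 2, against -1.12 and -0.67 in replicate 1 without it and -1.59 and -2.25 in replicate 2. At 4 h all 4 values of pdc101 lay between -0.44 and -0.05. The mirror image in fbp1 was plain in replicate 2. There fbp1 read 2.65 and 1.22 at 1 and 2 h with P-factor, against 1.74 and 2.25 without it, and 0.12 at 4 h with P-factor, against 0.34 without it. In replicate 1 fbp1 read 0.97, 1.38 and 0.66 at 1, 2 and 4 h with P-factor, against 0.58, 1.34 and 1.17 without it, and without P-factor replicate 1 was no lower at 4 h than at 1 h. On average fbp1 was above growth at 1.15 ± 0.30 with P-factor and 0.93 ± 0.30 without it (adjusted p = 0.00211 and 0.00989).

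**Figure D4:**
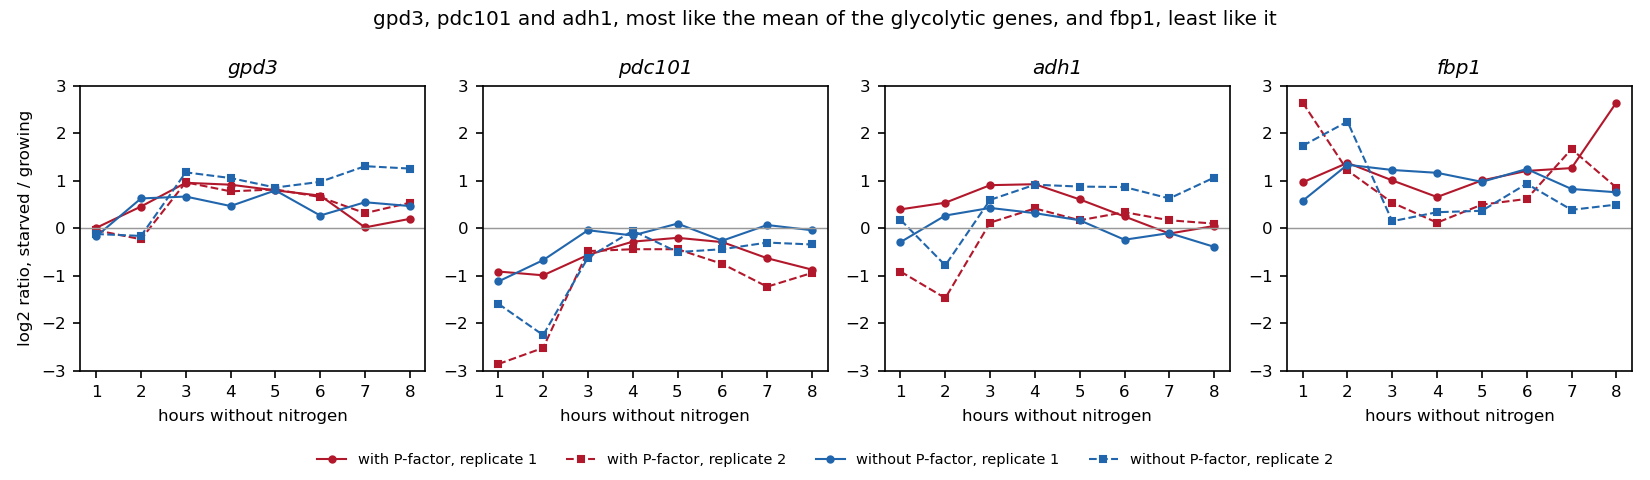
Log2 ratio of starved over growing cells against hours without nitrogen for gpd3, pdc101, adh1 and fbp1 on each array, with P-factor (red) and without it (blue), replicate 1 solid and replicate 2 dashed. In replicate 2 of both conditions the first 3 are higher at 3 h than at 2 h, and fbp1 is lower at 3 h than at 2 h.

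Genes around glycolysis were counted from lists of related pathways, with calls read against the same shares of all genes as above. Of 4 genes of gluconeogenesis and other glucose-repressed genes, 3 were above growth in both conditions and none below. Besides fbp1 these were pyr1, for pyruvate carboxylase, at 0.99 and 1.17 with and without P-factor, and gld1, for glycerol dehydrogenase, at 0.98 and 1.15, where the gld1 call with P-factor was lost without replicate 2. The invertase gene inv1 was not called on average, at 0.63 ± 0.43 and 0.69 ± 0.43. It was called lower late than early in both conditions, at -1.58 with P-factor and -1.16 without it. The inv1 change with P-factor was -0.64, and not called, without replicate 2, and -2.51 without replicate 1, and the call without P-factor was lost when either replicate or the block for array series was left out. The list's medians were 0.99 and 1.04.

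All 3 trehalose genes were above growth in both conditions. Trehalose is a storage and stress sugar made from glucose 6-phosphate. The neutral trehalase gene ntp1 was at 2.14 ± 0.32 with P-factor and 2.79 ± 0.32 without it, the synthase gene tps1 at 1.28 ± 0.20 and 2.03 ± 0.20, and the phosphatase gene tpp1 at 0.77 ± 0.14 and 0.68 ± 0.14 (adjusted p at most 0.000187 for each).

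Of 6 genes of the pentose phosphate pathway, which branches from glucose 6-phosphate, 4 were above and 1 below growth in both conditions. The entry enzyme gene zwf1, for glucose 6-phosphate dehydrogenase, was at 1.60 ± 0.21 and 1.35 ± 0.21 with and without P-factor, and rpe1, tal1 and tkt1 were between 0.44 and 0.76. These averages rest in part on single series. The zwf1 value without P-factor stayed called but was 0.71 without replicate 2. There tal1 and tkt1 lost their calls without replicate 2, at 0.30 and 0.12, and rpe1 stayed called at 0.35. With P-factor rpe1 lost its call without replicate 1, tal1 without replicate 2, and tkt1 when either replicate was left out. The ribose 5-phosphate isomerase gene rki1 was far below growth on every array, between -2.49 and -1.34 with P-factor and between -2.63 and -1.73 without it. Its averages were -1.93 ± 0.10 and -2.24 ± 0.10 (adjusted p = 1.55e-13 and 1.29e-14). It was 0.84 ± 0.10 higher late than early with P-factor, which was called, and 0.18 ± 0.10 without it, which was not. The difference of 0.66 ± 0.14 between the conditions was called (adjusted p = 0.00133), as it was for 15.6% of all genes in that direction. With quantile normalization the late minus early change of rki1 with P-factor was 0.48, and still called.

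Of 7 measured fermentation genes, 3 were above and 1 below growth in each condition. The pyruvate decarboxylase genes went separate ways. The gene pdc201 was at 2.96 ± 0.50 and 2.77 ± 0.50 with and without P-factor and pdc202 at 0.77 ± 0.12 and 1.21 ± 0.12, while pdc101 was at -0.90 ± 0.23 and -0.51 ± 0.23, and not called without P-factor (adjusted p = 0.0547). The pdc101 call with P-factor was lost without replicate 2. The aldehyde dehydrogenase gene atd1 was at 1.13 ± 0.22 with P-factor and 2.30 ± 0.22 without it, a called difference of -1.17 ± 0.31 (adjusted p = 0.0396), which lost its call under 5 alternatives and ranged from -1.94 to -0.41. The atd1 average without P-factor was 1.53 without replicate 1 and 3.07 without replicate 2, both called. The alcohol dehydrogenase gene adh4 was below growth without P-factor, at -0.61 ± 0.23, and had the opposite sign, 0.20, without replicate 1.

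Of 6 pyruvate dehydrogenase genes, whose complex turns pyruvate into acetyl-CoA in the mitochondria, 1 was above and 1 below growth with P-factor and 2 and 2 without it. Over time, 4 were lower and 1 higher late than early with P-factor, and 3 were lower without it. The 1 called higher was pkp1, at 0.52 ± 0.13, which encodes a kinase acting on the complex and not a subunit. Called in both were pdx1 at -0.62 and -0.69, dld1 at -0.45 and -0.67, and pdb1 at -0.43 and -0.72, with and without P-factor. Of these changes of pdx1, dld1 and pdb1, only that of pdx1 with P-factor was called under every alternative. With P-factor, dld1 and pdb1 lost their calls when either replicate was left out, and pdb1 also with no block for array series. Without P-factor, dld1 and pdx1 lost theirs without replicate 2, at -0.19 and -0.52, and pdb1 without replicate 1, at -0.55. Of the 14 called changes in this list, averages included, 3 were called under every alternative. The other hexokinase gene, hxk1, was above growth at 1.15 ± 0.20 with P-factor and 0.55 ± 0.20 without it, unlike hxk2. Without P-factor its replicates averaged -0.15 and 1.25 and so opposed each other in sign. The second copy gpd3 was at 0.49 ± 0.17 and 0.63 ± 0.17, and its call with P-factor was lost when either replicate was left out.

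**Figure D5:**
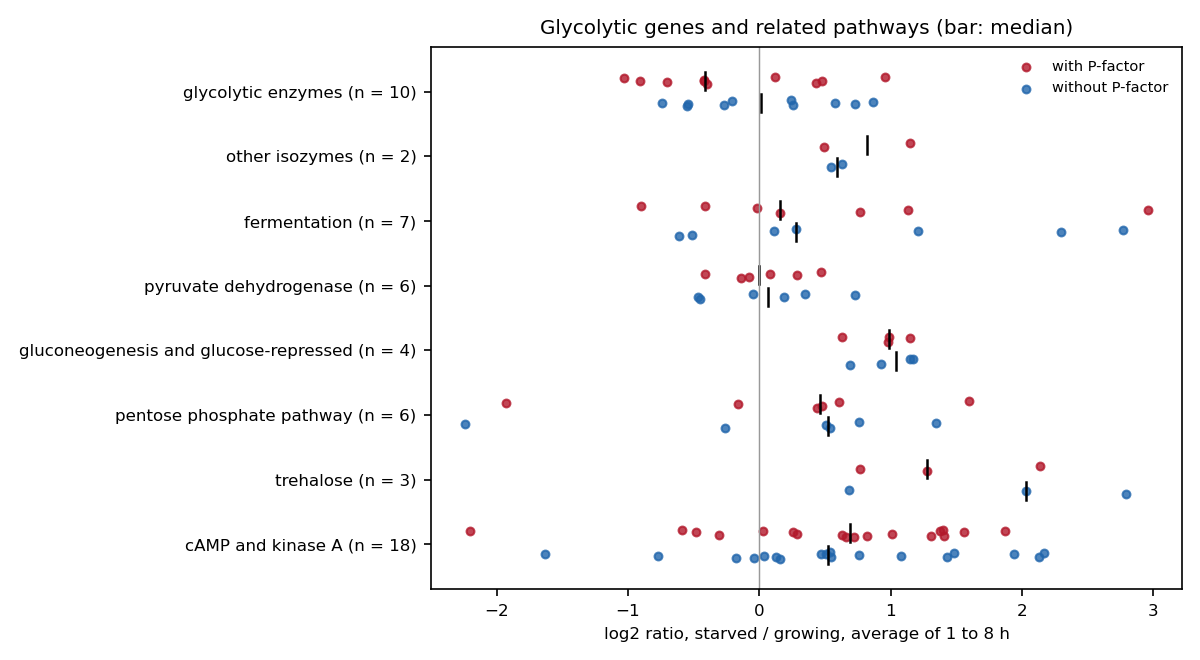
Average log2 ratio of starved over growing cells over 1 to 8 h for each measured gene of the glycolytic enzymes and 7 related lists, with P-factor (red) and without it (blue). Each point is a gene and bars mark medians. The glycolytic genes stay between -1.03 and 0.96, while ntp1 of the trehalose list, pdc201 of the fermentation list and rki1 of the pentose phosphate list lie beyond them, at 2.14, 2.96 and -1.93 with P-factor.

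The replicates limit all of this. Over genes, the 2 arrays of an hour correlated between 0.865 and 0.941 with P-factor and between 0.837 and 0.898 without it. The median gap between the 2 arrays was 0.36 for the glycolytic genes and 0.29 for all genes with P-factor, and 0.47 and 0.37 without it. With P-factor all 10 glycolytic genes were lower in replicate 2 at 1 h and 9 of 10 at 2 h, but 4 of 10 at 8 h. By gene, hxk2, pgk1 and pyk1 were lower in it at all 8 hours, fba1 at 4 and tdh1 at 3. Without P-factor pgi1, pfk1 and pyk1 were higher in replicate 2 at all 8 hours, and pgk1 was lower in it at all 8. The labels say that the experiment was repeated, without saying whether from separate cultures. The tests measure the spread of these arrays and assume 1 correlation within series for every gene. A gene whose series differ more than most therefore has p-values that are too small for its averages and single hours. In changes between hours a steady gap between series cancels, and there the p-values of such a gene are too large.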

How the data were processed

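The deposited values were log ratios of starved (Cy5) over growing (Cy3) cells, 1 per probe and array, with polyA RNA labelled by oligo dT priming, per the labels' protocols. The authors' background and normalization steps, and the log base, are not given in the sources used here. Base 2 was taken by convention, so the log2 scale of the deposited values is an assumption and a natural logarithm would change every fold. Precision is limited by the number of arrays, which have no read depth.

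Of 5188 probes, 4868 matched 1 gene, 22 several and 298 none in the array's gene table. Each array was centred on its median (-0.154 to 0.091), and missing values were 0.388%. The 4811 genes measured on at least 24 of 32 arrays were tested. limma 3.58.1 in R 4.3.3 fitted a mean for each of 16 groups, with array series as a random block (consensus correlation 0.354), moderated variances (16 residual and 6.32 prior degrees of freedom) and two-sided tests. Benjamini-Hochberg adjustment ran over all genes of a contrast, with a threshold of 0.05. Values after ± are the fit's standard errors. The script was also tested on simulated data. Tables and figures were made in Python 3.11.15.

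The labels number no replicates. Replicates 1 and 2 are the series of lower and higher sample number within a condition, and they pair no arrays across conditions.

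The glycolytic genes, the lists and the comparisons were chosen with earlier results of these data known. The naming rule took all 10 glycolytic genes, up to 4 called genes of each list by size, and the 5 genes most and the 5 least correlated with their mean. Some lists have more called genes named than this rule gives. The gene cyr1 was named although git5 of the same list changed more, at 1.40 and 1.94 with and without P-factor. The names eno102, gpm2, gpm3, glk1 and eht1 matched no measured gene and were not analysed here. Sequences and promoter motifs were not analysed here. Alternatives changed the scaling, block, weights, filter, hours or arrays used.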

Additional observations from a re-analysis of the deposited data

Results flagged for a closer look

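In pyk1 and tpi1, the conditions differed in how the ratio changed with time, by a test of that difference. The late minus early change with P-factor minus that without it was -0.98 in pyk1 and -0.57 in tpi1. For pyk1 the difference passed the test between 3 to 5 h and 6 to 8 h too, at -0.80, and at 8 h alone, at -1.43. Both use late arrays that the late minus early difference also uses, so they are not separate support. The contrast at -0.80 was chosen after the hourly values were seen and lost its call whichever array series was left out. The 8 h value was not recomputed under the alternatives. The 8 h values of pyk1 were -0.84 and -1.25 with P-factor, against -0.29 and 1.06 without it, and the standard deviation between the 2 arrays was 0.29 with P-factor and 0.95 without it. The late minus early changes of tpi1 were -0.22 ± 0.14 with P-factor and 0.36 ± 0.14 without it. Groups of 2 arrays were too small for a search for outlying arrays.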

How the results depend on the processing

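Of 40 called changes of single glycolytic genes, 8 were called under every alternative run: the averages of pgi1 and tpi1 in both conditions, those of gpm1, pfk1 and tdh1 without P-factor, and the fall of pyk1 from 3 to 5 h to 6 to 8 h with P-factor. Over 440 alternative values of these 40, 80 lost the call and 1 reversed, the late minus early change of eno101 with P-factor, which was -0.12 without replicate 2 of that condition and 1.25 without replicate 1. Elsewhere 46 values gained a call and 50 uncalled values changed sign, of 1210 compared. The cause was not tested, beyond the smaller number of arrays where a series was left out. Leaving out each array series in turn gave these ranges of counts of genes called. For averages with P-factor, 1 to 3 were higher and 1 to 6 lower, and without P-factor 3 to 5 were higher and 2 to 3 lower. For late minus early with P-factor, 0 to 2 were higher and 0 to 4 lower, and without P-factor 0 to 5 were higher. For P-factor minus none, 0 to 1 were higher and 0 to 2 lower on average, and 0 to 5 were lower in the late minus early difference. Of the contrasts chosen after seeing the data, the step to 3 to 5 h had 0 to 5 higher with P-factor and 0 to 8 without it. The step from there to 6 to 8 h had 1 to 3 lower with P-factor, and its difference between conditions 0 to 0. A left-out series leaves 1 array per group, taken to vary like the others.

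With no block for series, averages without P-factor had 5 lower, late minus early had 0 higher with P-factor and 2 higher without it, and the differences between conditions had 1 lower on average, 0 lower in late minus early and 0 lower in late minus middle. The middle minus first step without P-factor had 3 higher. With values as deposited, late minus early with P-factor had 0 higher and 4 lower, and late minus middle had 6 lower. With arrays scaled, late minus early with P-factor had 0 higher and 2 lower and late minus middle 5 lower. With quantile normalization they had 0 higher and 3 lower, and 6 lower. Quantile normalization also gave 4 and 2 lower for the late minus early and late minus middle differences. Array weights gave 5 lower for late minus middle with P-factor. With the series as a fixed replicate block, late minus early with P-factor had 0 higher and late minus middle 5 lower. This block holds hours of a series together, as the labels do not number replicates and pair no arrays across conditions. Centring shifted the median of all genes from -0.08 as deposited to 0.11 for late minus early with P-factor, and from -0.08 to 0.05 for its difference between conditions. Values of single hours and the tests over all hours were not recomputed under the alternatives. The replicate gaps of 0.36 and 0.47 set the precision.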

Other observations

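Glucose represses fbp1 and other genes through cAMP and protein kinase A, and 18 genes of this pathway and of related kinases and repressors were measured. With P-factor, 12 were called above and 4 below growth on average, and 11 and 2 without it. Of all genes tested, 33.9% were called higher and 32.8% lower with P-factor, and 33.7% and 35.3% without it. The kinase gene pka1 was at 1.87 ± 0.22 with P-factor and 2.17 ± 0.22 without it, and git1, needed for the activation of adenylate cyclase by glucose, at 1.56 ± 0.19 and 2.13 ± 0.19. The transcription factor gene rst2, which activates fbp1, was at 1.41 ± 0.13 and 1.43 ± 0.13. The chaperone gene hsp90, listed for its role in adenylate cyclase activation, was at -2.20 ± 0.24 and -1.63 ± 0.24. Without P-factor the hsp90 average stayed called but was -0.65 without replicate 2 and -2.61 without replicate 1. It was higher late than early, by 2.31 ± 0.24 with P-factor and 1.36 ± 0.24 without it, the second of which lost its call with no block for array series. The adenylate cyclase gene cyr1 was at 1.31 ± 0.21 and 1.08 ± 0.21. The median of the list was 0.69 with P-factor and 0.52 without it, against 0.02 and -0.00 for all genes.

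Of the fermentation genes, pdc102 was flat on average, at -0.02 ± 0.14 with P-factor and 0.11 ± 0.15 without it. Its late minus early change was -0.91 ± 0.14 with P-factor and -0.06 ± 0.15 without it. This difference of -0.85 ± 0.21 passed the test (adjusted p = 0.00474), against 10.2% of all genes called lower. It was -0.63, and not called, without replicate 1 with P-factor.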
